A study of Mus musculus with 9 samples.

Results

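Gabra6, the gene of a GABA-A receptor subunit made by mature cerebellar granule neurons, split 6 medulloblastomas labelled Cdk6-/- into 2 tumours with a high level and 4 with a low level. The rule was the Gabra6 level in CPM, the gene's counts per 1000000 counts of its library: above 500 CPM in tumours 1 and 5, and below 100 CPM in tumours 2, 3, 4 and 6. These 6 were all the Cdk6-/- tumours among 9 in the series, and the other 3 were labelled Cdk6+/+. Because Gabra6 chose the tumours, and any gene that varies with it was chosen along with it, the values of the high against the low tumours are given as a description with no test. The contrast is among tumours of 1 genotype, so it is no comparison of Cdk6 states.

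RNA was sequenced from flash-frozen tumours of C57BL/6J mice, an inbred strain. Every mouse carried the Cre transgene B6.Cg-Tg(Atoh1-cre)1Bfri/J (Atoh1 is also called Math1) and the targeted allele GT(ROSA)26Sortm1(Smo/EYFP)Amc/J, which holds SmoM2 fused to the fluorescent protein EYFP at the ROSA26 locus. SmoM2 is a constitutively active Smoothened, the transducer of the Hedgehog signal, so that Cre made in Atoh1-expressing cells turns on the pathway in all 9 tumours, the Cdk6-/- and the Cdk6+/+ ones alike. The labels give neither age, sex nor region of dissection, do not say whether Cdk6 was lost in the whole animal or in the Cre-expressing cells, and name a tumour per sample without naming the animal, so p-values measure the spread between these samples.

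Granule neurons arise from progenitors in the outer layer of the young cerebellum that express Atoh1 and divide under Sonic hedgehog. After their last division they switch off Atoh1, pass through an early postmitotic stage with the helix-loop-helix factors Nhlh1 and Neurod1, and migrate inward. Mature cells in the inner layer make Gabra6, the cerebellins and a set of synaptic and channel proteins, and in the mouse nuclear factor I (NFI) proteins take part in turning on Gabra6.

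The promoters of Gabra6 and of the 2 other granule neuron genes with the largest ratio among genes high in both tumours are shown, since these genes have the pattern that chose the tumours. They run from 250 bases before to 50 bases after the start of transcription, from the RefSeq table on GRCm38.p6, 5′ to 3′ on the gene's strand. Capitals mark the NFI core motif TTGGC, which reads GCCAA where it lies on the other strand, and the E-box CANNTG, the site of helix-loop-helix factors, both searched on both strands. The 2 motifs did not overlap in these windows.
Gabra6, chr11:42321023-42321322, minus strand: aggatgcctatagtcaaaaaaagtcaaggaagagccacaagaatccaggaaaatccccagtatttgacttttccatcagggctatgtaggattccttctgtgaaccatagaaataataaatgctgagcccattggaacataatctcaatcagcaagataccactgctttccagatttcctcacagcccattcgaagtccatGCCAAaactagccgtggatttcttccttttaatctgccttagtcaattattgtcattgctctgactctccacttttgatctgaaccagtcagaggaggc
Gabrb2, chr11:42420190-42420489, plus strand: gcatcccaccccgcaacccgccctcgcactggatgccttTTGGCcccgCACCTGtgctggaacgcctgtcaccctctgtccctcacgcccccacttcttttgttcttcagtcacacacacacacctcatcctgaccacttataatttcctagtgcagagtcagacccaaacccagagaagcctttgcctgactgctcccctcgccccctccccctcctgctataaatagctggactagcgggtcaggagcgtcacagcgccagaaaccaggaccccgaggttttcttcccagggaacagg
Etv1, chr12:38779832-38780131, plus strand: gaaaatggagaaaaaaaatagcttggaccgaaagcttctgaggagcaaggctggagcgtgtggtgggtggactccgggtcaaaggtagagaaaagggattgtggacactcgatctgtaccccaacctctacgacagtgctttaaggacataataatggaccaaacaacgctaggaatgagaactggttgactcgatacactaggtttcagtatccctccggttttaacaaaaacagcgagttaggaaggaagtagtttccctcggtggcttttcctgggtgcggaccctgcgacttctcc
The Gabra6 window held 1 TTGGC match, starting at base 202 of the window, and no CANNTG. The Gabrb2 window, for 1 of 3 listed starts, held 1 TTGGC at base 40 and 1 CANNTG at base 49, and the Etv1 window, for 1 of 2 listed starts, held neither. Of the 144 genes high in both tumours 103 were in the table, with 167 promoters. TTGGC was in 45.5% of these and in 46.7% of all 32851 promoters, and CANNTG in 67.7% and 72.3%. A match is a string of letters, not a bound site.

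Library totals were 21386685 and 24699519 counts in tumours 1 and 5, 22627157 to 34539738 in tumours 2, 3, 4 and 6 and 39426972 to 56837204 in the Cdk6+/+ tumours. A gene at 0 counts could be present at up to 3 counts, which is 0.0869 to 0.14 CPM in the Cdk6-/- libraries. This limit and the intervals below cover counting error only. The libraries of tumours 1 and 5 also stood apart in scaling, with TMM factors of 0.875 and 0.917, against 0.969 to 1.17 in tumours 2, 3, 4 and 6 and 0.973 to 1.04 in the Cdk6+/+ tumours. Sex-linked transcripts differed among the Cdk6-/- tumours: the Y-linked Ddx3y was at 0.14 CPM in tumour 1 and 132 CPM in tumour 5, against 149, 67.5, 83.5 and 0 CPM in tumours 2, 3, 4 and 6. Xist, the RNA of the inactive X chromosome, was at 115 CPM in tumour 1 and 0.324 CPM in tumour 5, against 0.988, 0.724, 0.619 and 1701 CPM in tumours 2, 3, 4 and 6. The Cdk6+/+ tumours had 0 CPM of Ddx3y each and 1929, 2169 and 1539 CPM of Xist, so sex-linked transcripts also run with genotype, and their part in the comparison of genotypes was not tested. Tumour 1 had 3 counts of Ddx3y, while its Xist stood at a level between tumour 6 and the tumours with Ddx3y.

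Gabra6 lies on chromosome 11 at 42306437 to 42321072 of GRCm38.p6, on the minus strand, next to other GABA-A receptor genes. It had 814 CPM in tumour 1 and 965 CPM in tumour 5, against 15.5, 45.3, 12.6 and 2.43 CPM in tumours 2, 3, 4 and 6. Exact 95% counting intervals were 802 to 826 and 953 to 978 CPM in the 2 high tumours. Tumour 1 was thus 18.0 times and tumour 5 21.3 times the highest of the low tumours. The Cdk6+/+ tumours had 85.6, 74.1 and 157 CPM, each above all 4 low tumours and below both high ones. In bulk tissue fewer cells of a type and less RNA per cell cannot be told apart, here and in all that follows.

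Cdk6 itself, the cyclin D dependent kinase named in the labels, had 187 CPM in tumour 1 and 1.98 CPM in tumour 5, against 580, 316, 498 and 340 CPM in tumours 2, 3, 4 and 6. The Cdk6+/+ tumours had 549, 572 and 547 CPM. Tumours 2, 3, 4 and 6 labelled Cdk6-/- thus held Cdk6 transcript at 316 CPM or more, and tumour 5 had almost none. Over the 6 Cdk6-/- and 3 Cdk6+/+ tumours the log2 fold change was -0.85 (SE 0.93, edgeR quasi-likelihood test, adjusted p = 0.672). Counts per gene do not show which exons the reads came from and the labels name no deleted exon, so the level does not check the label.

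**Figure D1:**
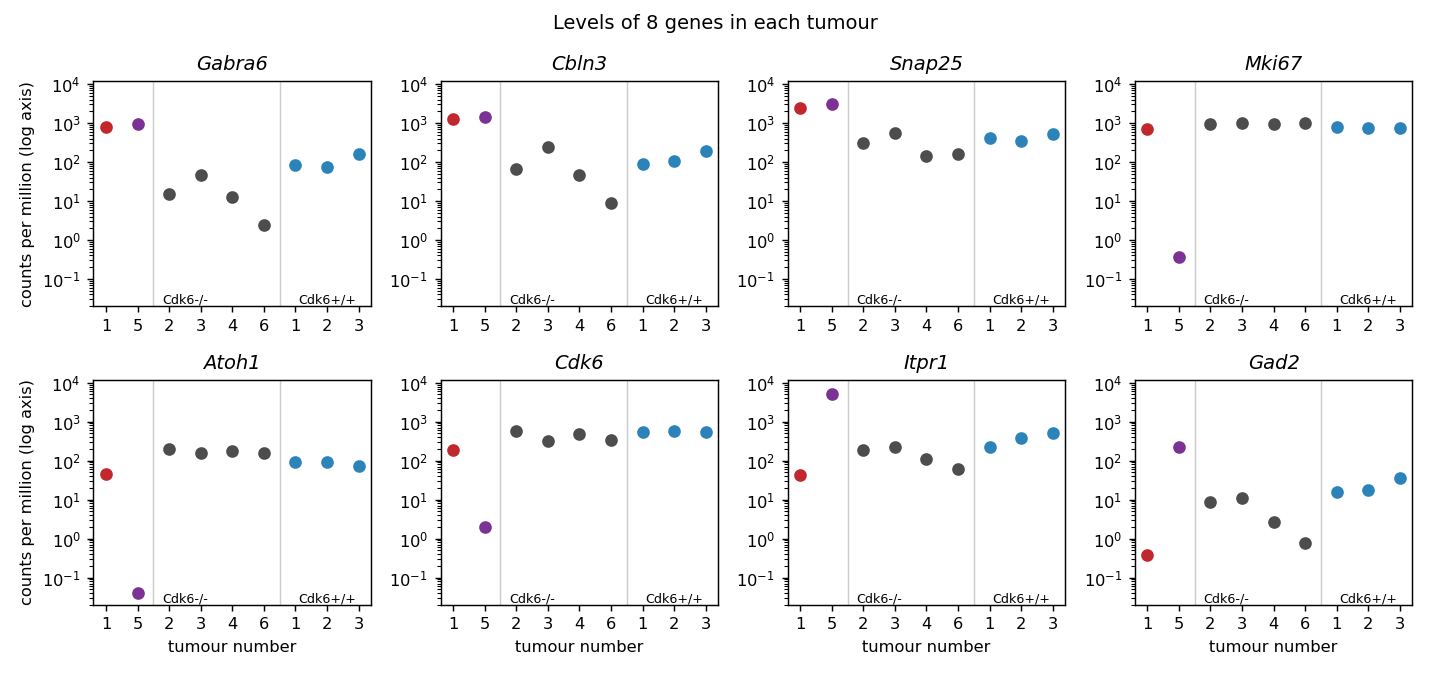
Level of 8 genes in each of the 9 tumours, in CPM on a log axis, 1 point per tumour (red, Cdk6-/- tumour 1; purple, Cdk6-/- tumour 5; grey, Cdk6-/- tumours 2, 3, 4 and 6; blue, Cdk6+/+ tumours 1 to 3). Gabra6, Cbln3 and Snap25 were high in tumours 1 and 5, Mki67, Atoh1 and Cdk6 were lowest in tumour 5, and Itpr1 and Gad2 were high in tumour 5 and lowest in tumour 1.

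High Gabra6 went with 2 different profiles of other genes. A gene was called high in a tumour where it had at least 1 CPM and at least 4 times the highest of tumours 2, 3, 4 and 6, and low where the lowest of those 4 was at least 1 CPM and the tumour had at most 0.25 times it. Of 17322 genes with at least 1 CPM in a Cdk6-/- tumour, 144 (0.831%) were high in both tumours 1 and 5, 98 (0.566%) in tumour 1 only and 744 (4.3%) in tumour 5 only. In the other direction 56 genes (0.323%) were low in both, 101 (0.583%) in tumour 1 only and 1054 (6.08%) in tumour 5 only. Tumour 5 therefore departed from the 4 low tumours in many more genes than tumour 1 did. These shares are those of the contrast the tumours were chosen on.

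The 6 patterns differ in how far the second tumour went along. Among genes high in tumour 1 only, tumour 5 was above all 4 low tumours in 67, within their range in 24 and below it in 7. Among genes high in tumour 5 only, tumour 1 was above the range in 290, within it in 349 and below it in 105. Among genes low in tumour 5 only, tumour 1 was below the range in 807, within it in 225 and above it in 22. Over all 17322 genes considered, tumour 1 was above the range in 3679 and below it in 6951, and tumour 5 was above it in 4948 and below it in 7214. Nefm, low in tumour 1 and high in tumour 5, was 1 of 5 genes with opposite calls of that kind, and Hpse, high in tumour 1 and low in tumour 5, was the 1 gene of the other kind.

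**Figure D2:**
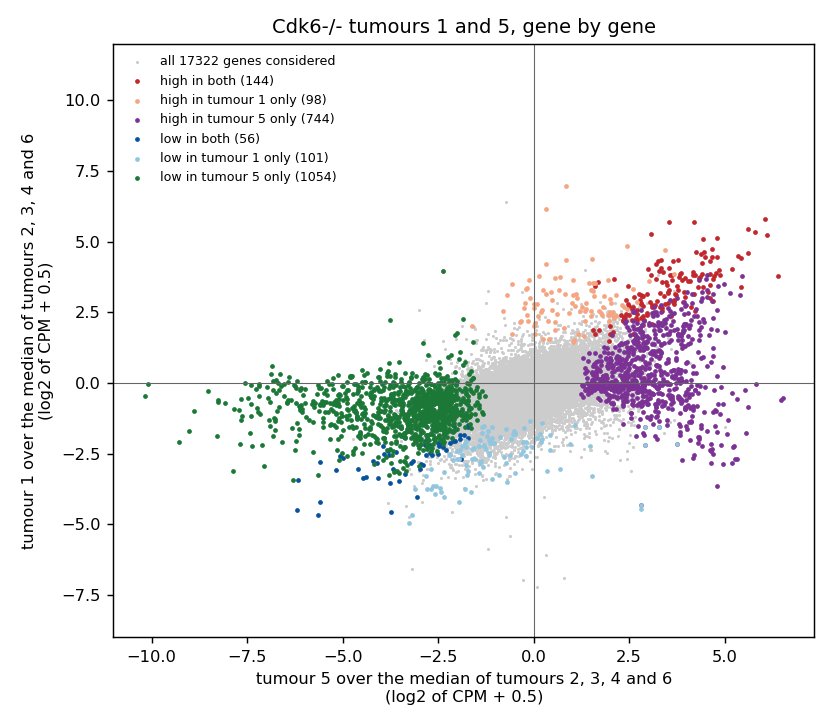
Level in tumour 1 (vertical axis) and in tumour 5 (horizontal axis) over the median of tumours 2, 3, 4 and 6, as log2 of CPM plus 0.5, for the 17322 genes considered, 1 point per gene coloured by its pattern. The 744 genes high in tumour 5 only and the 1054 low in tumour 5 only spread along the horizontal axis, while the 144 genes high in both lie at the upper right.

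The threshold leaves genes close by on either side. Just inside were Lrrtm3 and Nptxr with a smaller ratio of 4.03 and Kcnk10 with 4.08, and among those just outside were Nap1l5 with 3.96 and Sh3bgr with 3.91. The count also rests on single low tumours: without tumour 3, 246 genes were high in both. Leaving out a low tumour can only add genes to this pattern, so all 144 were among them by the rule. Genes low in both numbered 218 without tumour 2 and 85 without tumour 6, and genes low in tumour 1 only 405 and 198. With TMM scaling 32 genes were low in both and 61 in tumour 1 only.

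The 12 genes with the largest ratios among those high in both are given first. Acvr1c, an activin receptor, had 40.4 and 36.1 CPM in tumours 1 and 5, against 1.75, 1.24, 1.06 and 0.651 CPM in tumours 2, 3, 4 and 6. Gabrb2, a second GABA-A receptor subunit that assembles with Gabra6, had 184 and 371 CPM in tumours 1 and 5, against 10, 4.23, 1.86 and 9.86 CPM in the same 4. The groups were far apart in both genes, and the Cdk6+/+ tumours lay in between, at 5.05 to 6.53 CPM of Acvr1c and 20.9 to 49.7 CPM of Gabrb2. The shaker-type potassium channel Kcna1 had 209 and 233 CPM in tumours 1 and 5, against 10.4, 14.0, 2.74 and 10.7 CPM in tumours 2, 3, 4 and 6.

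The other genes of the 12 were named for the same ratio. Rasgrp1, an activator of Ras that responds to diacylglycerol, had 104 and 98.9 CPM in tumours 1 and 5, against 4.86, 5.12, 1.9 and 0.999 CPM in tumours 2, 3, 4 and 6. Dgkg, a diacylglycerol kinase, had 115 and 212 CPM in tumours 1 and 5, against 2.96, 7.41, 2.21 and 0.521 CPM in the 4. Lin7a, a PDZ scaffold of synapses, had 362 and 548 CPM in tumours 1 and 5, against 27.8, 28.3, 10.7 and 25.9 CPM in the 4. In each of these the lower of tumours 1 and 5 was more than 12 times the highest of the low tumours. Olfm3, a secreted olfactomedin, had 214 and 291 CPM in tumours 1 and 5, against at most 13.7 CPM in the 4. The membrane protein Xk had 97.5 and 95.3 CPM, against at most 6.88 CPM, and Nr4a3, a nuclear receptor that follows neuronal activity, 38.4 and 50.7 CPM, against at most 2.84 CPM. Fam135b, at 19.0 and 118 CPM, and Lancl3, at 10.8 and 46.1 CPM, were high in both but several times higher in tumour 5 than in tumour 1, against at most 0.984 and 0.836 CPM in the 4.

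Further genes high in both ranged down to the threshold ratio of 4. Bdnf, a neurotrophin, had 33.3 and 23.0 CPM in tumours 1 and 5, against 0.398 to 1.82 CPM in tumours 2, 3, 4 and 6. Unc13c, a priming factor of synaptic vesicles, had 161 and 319 CPM, against 3.39 to 18.5 CPM. Cacnb4, a subunit of voltage-gated calcium channels, had 293 and 598 CPM, against 15.2 to 42.2 CPM. These 3 were chosen after their values were seen. Of the 144 genes 125 (86.8%) were protein-coding, against 80.9% of all genes considered. Their median exon length was 5169 bases and their median GC content 46.9%, against 4127 bases and 49.8% in all protein-coding genes considered. The ratio of tumour 1 to tumour 5 had a median of 0.838 with quartiles of 0.621 and 1.13. Over all genes considered its median was 0.98 with quartiles of 0.51 and 1.65. The rule asks for high levels in both tumours, so it sets in part how near the 2 levels are.

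The mature granule neuron list, 24 genes without Gabra6, held 10 genes high in both tumours, 2 high in tumour 1 only, 6 high in tumour 5 only and none low in either. Over all genes considered 0.831% were high in both, 0.566% in tumour 1 only and 4.3% in tumour 5 only. Its summed level was 9533 CPM in tumour 1 and 13980 CPM in tumour 5, against 1001, 1929, 897 and 1277 CPM in tumours 2, 3, 4 and 6 and 1220, 1417 and 2001 CPM in the Cdk6+/+ tumours. Both tumours thus stood several times above the other 7 in the list as a whole. The median member was at a log2 ratio of 3.05 in tumour 1 and 3.66 in tumour 5 to the median of the 4, against -0.27 and -0.28 over all genes considered. Tumour 1 was above all 4 low tumours in 20 members and tumour 5 in 22, beside 3679 and 4948 of all 17322 genes. Without tumour 3, 15 members were high in both.

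Adcy1, the calcium-stimulated adenylyl cyclase, had 1391 and 2657 CPM in tumours 1 and 5, against 68.8, 194, 56.7 and 133 CPM in tumours 2, 3, 4 and 6. Cbln3, a cerebellin that granule neurons secrete, had 1271 and 1468 CPM in tumours 1 and 5, against 67.4, 237, 47.6 and 8.95 CPM in the 4. Both tumours were above every other tumour in each gene, since the Cdk6+/+ tumours reached at most 217 and 195 CPM. Fat2, an atypical cadherin of granule neurons, had 766 and 1172 CPM, against 56.5, 154, 38.1 and 121 CPM in tumours 2, 3, 4 and 6. Camk4, a calcium-dependent kinase of the nucleus, had 951 and 1527 CPM, against 144, 121, 54.1 and 143 CPM. Etv1, an ETS factor of maturing granule neurons whose promoter is printed above, had 424 and 502 CPM, against 40, 25.3, 22.8 and 29.5 CPM.

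Not every marker of maturity had the shared pattern. Cadps2, a factor of dense-core vesicle release, had 1063 CPM in tumour 1 and 293 CPM in tumour 5, against 129, 136, 11.4 and 184 CPM in tumours 2, 3, 4 and 6. Rbfox3, which encodes NeuN, was at 231 and 195 CPM in tumours 1 and 5, against 108, 235, 211 and 240 CPM, within the range of the 4. Cadps2 and Rbfox3 were picked after their values were seen.

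Genes of the synaptic vesicle summed higher in both tumours, though most were not called. The 20 genes summed to 9554 and 12392 CPM in tumours 1 and 5, against 2513, 3793, 1806 and 2531 CPM in tumours 2, 3, 4 and 6. Tumour 5 was above all 4 in each of the 20 and tumour 1 in 17, while 3 genes were called high in both and 4 in tumour 5 only. Of all 17322 genes, tumour 5 was above all 4 in 4948 and tumour 1 in 3679. The shares called over all genes were 0.831% and 4.3%. Snap25, a SNARE protein of vesicle fusion, had 2507 and 3127 CPM, against 308, 545, 141 and 157 CPM. Cplx2, a complexin, was at 1095 and 817 CPM, against 638, 797, 447 and 528 CPM, so that in tumour 5 it barely passed tumour 3. The vesicle SNARE Vamp2 had 552 and 792 CPM, against 170 to 290 CPM. With TMM scaling 6 synaptic genes were high in both, and likewise 6 without tumour 3.

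Receptors and channels leaned to tumour 5. Of 38 GABA and glutamate receptor genes 2 were high in both (Gabrb2 and Gabrb1, the second picked after its value was seen) and 13 in tumour 5 only. Of 32 voltage-gated channel genes 4 were high in both, 1 in tumour 1 only and 8 in tumour 5 only, with 2 low in tumour 5 only. Over all genes considered 0.831% were high in both, 0.566% in tumour 1 only and 4.3% in tumour 5 only. The share low in tumour 5 only was 6.08%, so the 2 low channel genes are near it. Scn2a1, a sodium channel of axons, had 404 and 726 CPM in tumours 1 and 5, against 24.8, 43.1, 17.0 and 24.4 CPM in tumours 2, 3, 4 and 6. Kcna2 had 192 and 815 CPM, against 45.5, 97.8, 363 and 28.1 CPM, with tumour 4 above tumour 1. The AMPA receptor genes differed from each other: Gria2 had 735 and 646 CPM, against 440, 611, 119 and 303 CPM, while Gria1 had 147 and 656 CPM, against 151, 167, 66.7 and 57 CPM. The GABA-B receptor gene Gabbr1 was at 405 and 762 CPM, against 189 to 335 CPM. Cacna1e and Cacna2d1, subunits of voltage-gated calcium channels, were higher in tumour 1 than in tumour 5, with Cacna1e at 690 and 123 CPM, against 150, 275, 65.6 and 203 CPM, and Cacna2d1 at 700 and 82.4 CPM, against 673, 541, 363 and 611 CPM.

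**Figure D3:**
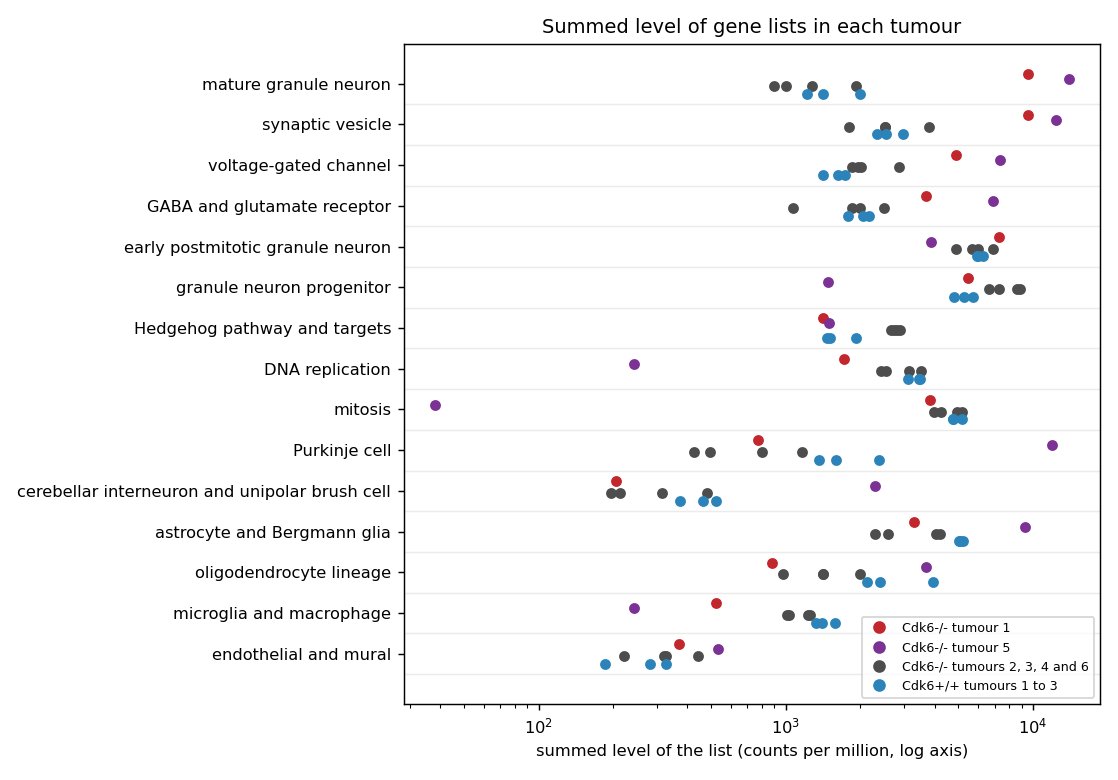
Summed level of 15 gene lists in each tumour, in CPM on a log axis, 1 point per tumour (red, Cdk6-/- tumour 1; purple, Cdk6-/- tumour 5; grey, Cdk6-/- tumours 2, 3, 4 and 6; blue, Cdk6+/+ tumours). Tumours 1 and 5 stood together above the rest for the first 4 lists, and apart for mitosis (3834 and 38.2 CPM) and Purkinje cell genes (770 and 11999 CPM).

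Cell division separated the 2 tumours. All 25 genes of the mitosis list were low in tumour 5 and none was low in tumour 1. Over all genes considered 6.08% were low in tumour 5 only and 0.583% in tumour 1 only. The list summed to 3834 CPM in tumour 1 and 38.2 CPM in tumour 5, against 4943, 3965, 4268 and 5185 CPM in tumours 2, 3, 4 and 6, so that tumour 1 was at 83.3% and tumour 5 at 0.829% of their median. Mki67, the proliferation antigen Ki-67, had 719 CPM in tumour 1 and 0.364 CPM, from 9 counts, in tumour 5, against 961, 1008, 974 and 1022 CPM. Top2a, the topoisomerase of dividing cells, had 629 CPM in tumour 1 and 2 counts in tumour 5, 0.081 CPM (95% interval 0.00981 to 0.293), against 738, 479, 538 and 830 CPM. Cdk1, the kinase of entry into mitosis, had 97.2 and 0.081 CPM, against 149 to 180 CPM, and the spindle genes Kif2c and Aurkb had 57.2 and 36.1 CPM in tumour 1 and 1 count each in tumour 5. Tumour 1 therefore held mature granule neuron and mitotic transcripts in 1 library. Tumour 5 had almost no mitotic transcripts and 1 count of Atoh1, besides high Purkinje and glial sums given below. How much tumour tissue that sample held was not tested, and this bears on every level given for tumour 5.

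DNA replication genes were also low in tumour 5, 22 of 25 beside 6.08% of all genes, and lower in tumour 1. The list summed to 1722 CPM in tumour 1 and 244 CPM in tumour 5, against 3154, 2432, 2556 and 3513 CPM in tumours 2, 3, 4 and 6. Tumour 1 was below all 4 in 19 of 25 members, beside 6951 of all 17322 genes, and called low in none. Mcm6, a subunit of the replicative helicase, had 210 and 6.6 CPM, against 411, 200, 242 and 439 CPM. Of 18 cyclin, CDK and inhibitor genes 9 were low in tumour 5 only, among them Ccnd2 with 1318 and 9.07 CPM, against 2267, 1615, 977 and 3071 CPM, and Cdk4 with 183 and 29.0 CPM, against 429, 464, 609 and 537 CPM. Ccnd1 had 311 and 20.4 CPM, against 735, 440, 552 and 529 CPM. In Cdk4 18.6% and in Ccnd1 23.4% of the exon bases lie opposite exons of another gene, and whether the counting used strand is not given, so their counts can hold reads of that gene.

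Progenitor genes followed the same order. Atoh1, which drives the progenitor state and the Cre transgene, had 45.3 CPM in tumour 1 and 1 count in tumour 5, 0.0405 CPM (95% interval 0.00103 to 0.226), against 203, 159, 177 and 161 CPM in tumours 2, 3, 4 and 6. Both tumours were below all 4, and also below the Cdk6+/+ tumours at 92.2, 94.7 and 73.8 CPM. The 17 genes of the progenitor list summed to 5486 and 1478 CPM, against 8596, 7316, 6668 and 8851 CPM. The Cdk6+/+ tumours had 5271, 5725 and 4776 CPM, so the sum in tumour 1 was within their range and that in tumour 5 below it. Of these genes 6 were low in tumour 5 only and 1, Barhl1, low in both, beside 6.08% and 0.323% of all genes. Sfrp1, a secreted Wnt modulator, had 637 and 6.68 CPM, against 1896, 1223, 1200 and 1651 CPM. Zic1, which granule neurons keep, had 1603 CPM in tumour 1 and 771 CPM in tumour 5, against 1128, 1198, 828 and 1133 CPM.

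Early postmitotic genes went in both directions in tumour 1. The 18 genes summed to 7280 CPM in tumour 1 and 3867 CPM in tumour 5, against 4886, 5682, 5979 and 6881 CPM in tumours 2, 3, 4 and 6, with none called in tumour 1 and 6 low in tumour 5 only. Tumour 1 was above all 4 in 6 of the 18 members and below all 4 in 5. Of all 17322 genes it was above in 3679 and below in 6951, so going in both directions is not particular to this list. Over all genes considered 6.08% were low in tumour 5 only. Without tumour 2 a member became low in both and another low in tumour 1 only. Tubb3, a neuronal tubulin picked after its value was seen, had 50 and 81.2 CPM, against 105 to 537 CPM. Neurod1 had 948 and 306 CPM, against 306, 461, 74.2 and 510 CPM, the highest of the 6 in tumour 1. Nrep, a neuronal regeneration protein, had 1766 and 503 CPM, against 697, 697, 595 and 649 CPM. Dcx, a microtubule protein of migrating neurons, had 707 and 4.33 CPM, against 681, 356, 443 and 971 CPM. Sox11 had 473 and 4.25 CPM, against 746, 744, 1270 and 857 CPM, and Nhlh1 had 126 CPM in tumour 1 and 1 count in tumour 5, against 168, 278, 290 and 231 CPM. Igfbpl1, a further early neuronal transcript, had 102 and 0.202 CPM, against 319, 436, 701 and 445 CPM. Kif5c, a kinesin heavy chain, had 994 and 1417 CPM, against 337 to 626 CPM, and was among 5 members above all 4 in tumour 5. That tumour was above all 4 in 4948 of all 17322 genes, a similar share.

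The Hedgehog list summed lower in both tumours, by less than the cell cycle genes in tumour 5. It summed to 1416 and 1502 CPM in tumours 1 and 5, against 2656, 2887, 2743 and 2822 CPM in tumours 2, 3, 4 and 6, that is 50.9% and 54.0% of their median. The Cdk6+/+ tumours had 1463, 1932 and 1509 CPM, close to tumours 1 and 5. Gli1, the target that reports pathway activity, had 47.4 and 20.1 CPM, against 111, 420, 412 and 218 CPM. The receptor Ptch1 had 599 and 785 CPM, against 1481, 933, 767 and 1116 CPM, and was within the range of the 4 in tumour 5. Spop, an adaptor of a ubiquitin ligase, ran against the list at 350 and 392 CPM, against 103 to 171 CPM. Of 19 genes of the list 6 were low in tumour 5 only, 1 was low in both and 2 were high in tumour 5 only. Over all genes considered those shares were 6.08%, 0.323% and 4.3%. The 2 high genes were Cdon and Shh, picked after their values were seen. Cdon had 13.4 and 57.1 CPM, against 3.08 to 7.96 CPM, and Shh 0.0935 and 3.56 CPM, against 0.0869 to 0.55 CPM. The NFI genes Nfia (770 and 178 CPM, against 1183 to 1682 CPM) and Nfib (1547 and 318 CPM, against 2002 to 2597 CPM) were low in tumour 5 by the rule and below the 4 in tumour 1. These 2 were the only members called low in a list of 16 factor genes, which also holds the NFI genes Nfic and Nfix. Over all genes considered 6.08% were low in tumour 5 only, so 2 of 16 is not far from that share. The ETS gene Etv1 was the 1 member high in both, beside 0.831% of all genes. Tumour 5 was above all 4 in 8 members and below all 4 in 6, and tumour 1 above in 7 and below in 4. Of all 17322 genes tumour 5 was above in 4948 and below in 7214, and tumour 1 above in 3679 and below in 6951.

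Purkinje cell transcripts stood high in tumour 5 and not in tumour 1. Of 20 genes of the list 17 were high in tumour 5 only and 1, Homer3 (picked after its value was seen), was low in tumour 1 only. The shares over all genes considered were 4.3% and 0.583%. The list summed to 770 CPM in tumour 1 and 11999 CPM in tumour 5, against 801, 1164, 492 and 425 CPM in tumours 2, 3, 4 and 6 and 1359, 1594 and 2379 CPM in the Cdk6+/+ tumours. Itpr1, which releases calcium from internal stores on an inositol trisphosphate signal, had 42.2 and 5061 CPM, against 192, 226, 108 and 60.1 CPM, and was lower in tumour 1 than in any other tumour. Calb1, the calcium buffer calbindin, had 7.57 and 1089 CPM, against 50.1, 82.5, 22.0 and 0.0869 CPM. Car8, an inhibitor of Itpr1, had 4.35 and 1241 CPM, against 40.7, 88.0, 20.5 and 4.99 CPM, and Rgs8 had 19.0 and 1142 CPM, against 19.5, 74.2, 20 and 4.21 CPM. Gad2, an enzyme of GABA synthesis in inhibitory neurons, had 0.374 and 225 CPM, against 8.66, 11.3, 2.65 and 0.782 CPM, and Gad1 2.71 and 578 CPM, against 2.82 to 49.7 CPM. The interneuron and unipolar brush cell list summed to 206 and 2291 CPM, against 197 to 480 CPM, with 9 of 15 genes high in tumour 5 only.

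Other genes with the largest ratios in tumour 5 had the same split. Prokr2, a prokineticin receptor, had 2 counts in tumour 1 (0.0935 CPM) and 80.9 CPM in tumour 5, against 0.418, 1.1, 0.398 and 0.0869 CPM in tumours 2, 3, 4 and 6. Cdr1, a neuronal locus whose antisense circular RNA cannot be told apart here, had 31.9 and 4270 CPM, against 23.6 to 117 CPM, while the Cdk6+/+ tumours had 3.78 to 11 CPM. Fbln5, an extracellular matrix protein, had 1.45 and 173 CPM, against 1.95 to 7.82 CPM, and the synaptic adhesion gene Slitrk4 2.38 and 96 CPM, against 1.9 to 4.43 CPM. Syt10, Cntnap5b and Cntnap5c had 13.8, 56.0 and 10.5 CPM in tumour 5, and none of them reached 0.8 CPM in tumour 1.

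Glial lists summed higher in tumour 5 too, by smaller ratios. The astrocyte and Bergmann glia list summed to 3292 and 9283 CPM in tumours 1 and 5, against 2304 to 4196 CPM in tumours 2, 3, 4 and 6. In tumour 5, 17 of 18 members were above all 4, beside 4948 of all 17322 genes. High in tumour 5 only were 3 members, beside 4.3% of all genes, and 1 was low in tumour 5 only, beside 6.08%. Slc1a3, the glutamate transporter of Bergmann glia, had 748 and 1799 CPM, against at most 795 CPM. The oligodendrocyte list summed to 881 and 3687 CPM, against 978 to 2006 CPM, and the Cdk6+/+ tumours had 2126 to 3943 CPM. Its members went both ways in tumour 5. Of 20 members 3 were high and 4 low in tumour 5 only, 1 was high in both and 1 low in tumour 1 only. Those shares over all genes considered were 4.3%, 6.08%, 0.831% and 0.583%. Tumour 5 was above all 4 in 14 members and below all 4 in 6, beside 4948 and 7214 of all 17322 genes. The myelin gene Mobp had 3.74 and 763 CPM, against 16.6, 180, 23.6 and 0.608 CPM, while the precursor gene Pdgfra had 519 and 37.7 CPM, against 201 to 792 CPM. Ermn, a myelin gene at 59.2 and 73.2 CPM, against 0.174 to 9.29 CPM, was high in both and was picked after its values were seen. The part of these cell types in the genes high in tumour 5 was not tested. In tumour 1 the Purkinje, interneuron and oligodendrocyte sums were within or below the range of the 4 low tumours.

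Microglial genes were lower in both tumours, and vessel genes leaned to tumour 5 without being called. The microglia list summed to 520 and 244 CPM in tumours 1 and 5, against 1015 to 1254 CPM in tumours 2, 3, 4 and 6. In this list of 16, 1 gene was low in both and 6 low in tumour 5 only, beside 0.323% and 6.08% of all genes. C1qb, a complement chain made by microglia, had 24.7 and 23.3 CPM, against 85.9 to 131 CPM. The endothelial and mural list summed to 370 and 531 CPM, against 221 to 440 CPM, with none of 16 genes called. No pattern took more than 6.08% of all genes, so nothing is read from the lack of calls. Tumour 5 was above all 4 in 11 of the 16 and below in 1, beside 4948 and 7214 of all 17322 genes. Tumour 1 was above in 2 and below in 6, beside 3679 and 6951. Meningeal genes summed to 243 and 256 CPM, against 135 to 782 CPM, and choroid plexus genes to 1030 and 839 CPM, against 84.8 to 2107 CPM. Forebrain neuron genes summed to 85.7 and 7.13 CPM, against 127 to 174 CPM, brainstem genes to 10.8 and 7.0 CPM, against 17.9 to 94.7 CPM, red cell genes to 1.36 and 3.81 CPM, against 1.09 to 9.55 CPM, and mitochondrial DNA genes to 26493 and 35431 CPM, against 11039 to 25217 CPM.

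Genes high in tumour 1 only by the rule were often above the 4 low tumours in tumour 5 as well, in 67 of 98. Arhgap36, an inhibitor of protein kinase A that can activate Gli factors, had 42.3 CPM in tumour 1 and 0.243 CPM in tumour 5, against 0.152, 0.405, 0.0442 and 0 CPM in tumours 2, 3, 4 and 6. The Cdk6+/+ tumours had at most 0.681 CPM, so the transcript was high in 1 tumour of 9. Hpse, heparanase, had 86.7 and 0.567 CPM, against 7.75, 5.53, 3.49 and 4.56 CPM, and Phex, an endopeptidase, 66.4 and 5.34 CPM, against 1.94 to 6.84 CPM. Galntl6, a glycosyltransferase, had 38.8 and 6.88 CPM, against 0.261 to 1.8 CPM, and the sodium channel gene Scn11a 11.1 and 0.526 CPM, against 0 to 0.304 CPM. Npas4, a factor induced by neuronal activity, had 34.7 and 5.18 CPM, against 1.44, 3.97, 3.14 and 0.695 CPM, and Gem, a small GTPase, 12.8 and 0.445 CPM, against 0.884 to 1.24 CPM. Ngef, an exchange factor of small GTPases, had 29.0 and 8.02 CPM, against 1.87 to 4.05 CPM. Of the 13 immediate early genes 2 were high in tumour 1 only, beside 0.566% of all genes, and 1 was low in tumour 5 only, beside 6.08%. The list summed to 395 and 198 CPM, against 240 to 306 CPM. Tumour 1 was above all 4 in 8 members and below in 3, beside 3679 and 6951 of all 17322 genes. Tumour 5 was above in 7 and below in 5, beside 4948 and 7214. Jun had 62.9 and 29.6 CPM, against 71.2 to 90.5 CPM, below all 4 in both tumours. Fos, picked after its value was seen, had 48.7 and 24.8 CPM, against 4.08 to 8.43 CPM.

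Genes low in both tumours were few and unlike those high in both in length and base composition. C1ql1, a secreted C1q-like protein, had 10.3 and 1.13 CPM in tumours 1 and 5, against 93.7, 123, 169 and 109 CPM in tumours 2, 3, 4 and 6. Barhl1, a homeobox factor of granule neuron progenitors, had 40.6 and 5.47 CPM, against 220, 285, 562 and 289 CPM. Both tumours were below every other tumour in these genes, the Cdk6+/+ tumours included, at 52.8 to 82.7 CPM of C1ql1 and 108 to 185 CPM of Barhl1. The ligand Wnt4 had 4.4 and 3.56 CPM, against 25 to 50.1 CPM, the laminin gene Lama5 15.5 and 13.4 CPM, against 86.4 to 359 CPM, and Bahcc1 28.6 and 25.8 CPM, against 154 to 339 CPM. Sox18 had 9.77 and 1.94 CPM, against 53.4 to 102 CPM, and Zbtb42 2.57 and 0.931 CPM, against 15.3 to 33.5 CPM. The 41 protein-coding members had a median exon length of 2839 bases and a median GC content of 58.1%, and the 79 of the genes low in tumour 1 only had 2728 bases and 58.1%, against 4127 bases and 49.8% over all. What part length and base composition have in these counts was not tested.

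Genes low in tumour 1 only included Nefm, a neurofilament, with 1.12 CPM in tumour 1 and 227 CPM in tumour 5, against 16.6, 45.8, 36.5 and 27.0 CPM in tumours 2, 3, 4 and 6. Sox10, a factor of oligodendrocytes, had 2.57 and 15.3 CPM, against 18.2 to 35.0 CPM, and Lfng, a modifier of Notch, 4.58 and 21.7 CPM, against 29.4 to 44.1 CPM. Flnc, a filamin, had 1.68 and 4.29 CPM, against 12.8 to 76.4 CPM, and N4bp3 1.36 and 5.43 CPM, against 13.5 to 35.2 CPM. Rps29, a ribosomal protein gene, had 6.73 and 23.0 CPM, against 45, 236, 262 and 212 CPM, and 18.9% of its 50-base sequences also occur in other genes. Adck5 had 5.47 and 9.96 CPM, against 33.8 to 67.0 CPM, and Nynrin 1.64 and 5.55 CPM, against 16.1 to 23.8 CPM, with 57.1% of the Nynrin exon bases opposite exons of another gene. Tumour 5 was below the 4 in 68 of the 101 genes, and in 7214 of all 17322.

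**Figure D4:**
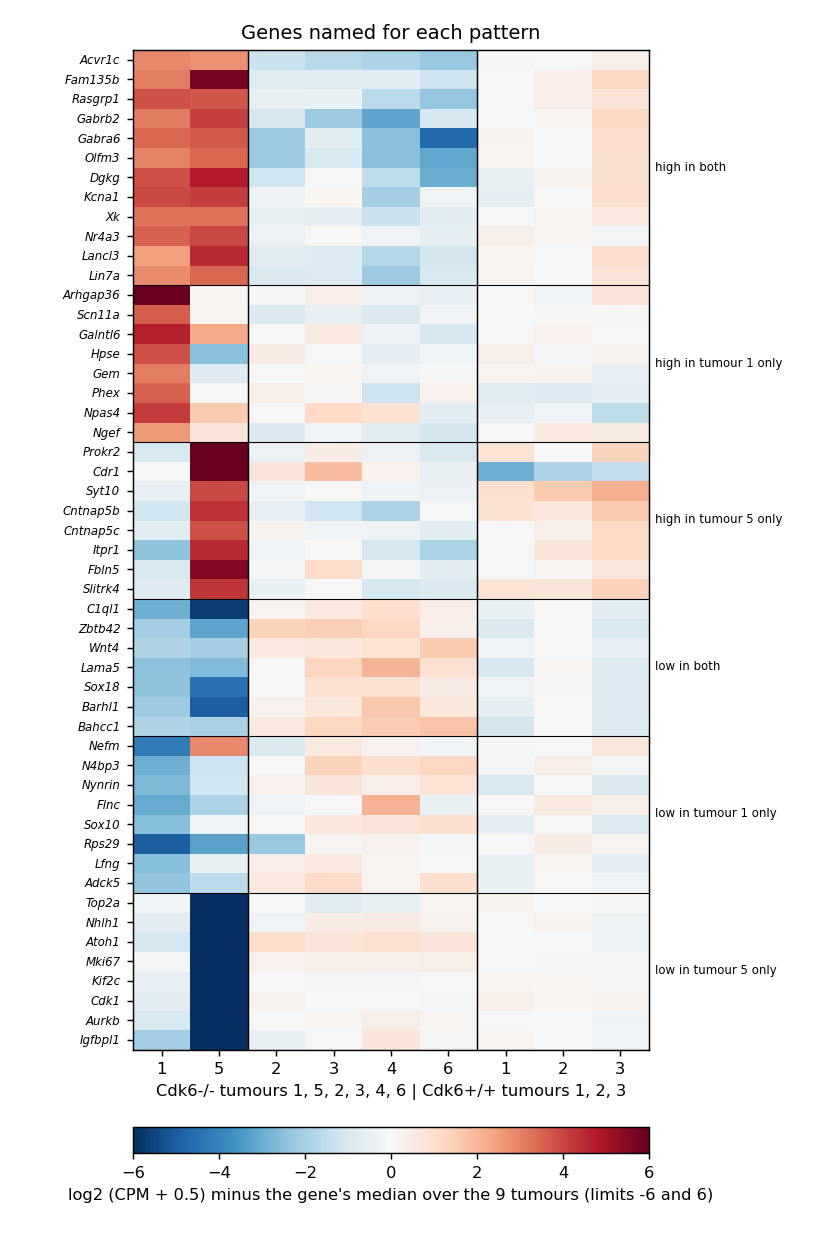
Heat map of the genes named for each of the 6 patterns (rows), 7 to 12 a pattern, in the 9 tumours (columns, Cdk6-/- tumours 1, 5, 2, 3, 4 and 6, then Cdk6+/+ tumours 1 to 3). Colour is log2 of CPM plus 0.5 minus the gene's median over the tumours, red above and blue below, with colours limited at -6 and 6. The 12 genes of the top block were above the median in tumours 1 and 5, and the bottom block was at the blue limit in tumour 5.

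The Cdk6+/+ tumours lay between the high and the low Cdk6-/- tumours for many genes. In all 144 genes high in both, every Cdk6+/+ tumour was below tumours 1 and 5, against 24.1% of all genes considered. In 55 of the 144 every Cdk6+/+ tumour was also above all of tumours 2, 3, 4 and 6, against 12.1% of all genes considered. In 53 of the 56 genes low in both, every Cdk6+/+ tumour was above tumours 1 and 5, against 30.4% of all genes. The genes were chosen for extreme levels in tumours 1 and 5, and the ratio of 4 also favours genes with low levels in tumours 2, 3, 4 and 6, so the choice bears on each of these counts.

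In the comparison of genotypes tumours 1 and 5 are 2 of the 6 Cdk6-/- samples. Of 18356 genes tested 507 (2.76%) were higher and 446 (2.43%) lower in the Cdk6-/- tumours by edgeR's quasi-likelihood test at an adjusted p under 0.05, 953 (5.19%) in all. That count was 1506 without Cdk6-/- tumour 5 and 525 without Cdk6-/- tumour 3, and 221, 400 and 207 without Cdk6+/+ tumours 1, 2 and 3. Of the genes high in both 139 were tested and 0 were called, and DESeq2 called 3 of 144 higher, where it called 8.01% of all genes higher. Genes chosen for a wide split within Cdk6-/- have a wide spread in this test, so nothing is read from the low count. Gabra6 averaged 309 ± 452 CPM in Cdk6-/- tumours and 105 ± 44.7 CPM in Cdk6+/+ tumours (SD, n = 6 and 3), with a log2 fold change of 1.68 (SE 1.67, edgeR adjusted p = 0.636). The spread within Cdk6-/- was thus larger than the difference. Without tumours 1 and 5 the direction turned: Gabra6 had a log2 fold change of -2.64 (edgeR adjusted p = 0.0323), and 31 of 137 genes high in both were lower and 0 higher, where 6.14% of all genes tested were lower and 8.12% higher. Leaving out the 2 tumours chosen for high levels sets that direction in part, so the count is no independent evidence of a difference between genotypes.

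The other patterns are given beside the 5.19% called over all genes, and the choice of genes bears on their counts too. Of genes high in tumour 1 only 0 of 72 were called, of genes high in tumour 5 only 1 of 618 was higher, and of genes low in tumour 5 only 2 were higher and 19 lower of 1054. Without tumours 1 and 5, 6 of 603 genes high in tumour 5 only were higher and 87 lower, a direction that again the choice of genes bears on. Of genes low in both 2 were higher and 1 lower of 56, and of genes low in tumour 1 only 3 were higher and 3 lower of 101. Among the mature granule neuron genes Rbfox3 was higher in Cdk6-/- tumours (log2 fold change 1.33, SE 0.31, edgeR adjusted p = 0.0366), a gene without the high pattern. Atoh1 had a log2 fold change of 0.45 (edgeR adjusted p = 0.874), and 0.93 (edgeR adjusted p = 0.0115) without tumours 1 and 5. These 2 had the lowest Atoh1 of the Cdk6-/- tumours. Leaving them out sets the second value in part, so it is no independent evidence of a difference between genotypes. The authors' deposited table of 761 genes held 0 of the 144 genes high in both, 1 of the 98 high in tumour 1 only and 9 of the 744 high in tumour 5 only. It held 3 of the 56 low in both, 7 of the 101 low in tumour 1 only and 10 of the 1054 low in tumour 5 only, beside 467 (2.7%) of all genes considered.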

How the data were processed

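RNA of 9 mouse medulloblastomas, 6 labelled Cdk6-/- and 3 labelled Cdk6+/+, was made into TruSeq libraries from total RNA extracted with Trizol, per the labels' protocols, and sequenced on an Illumina machine as single-end reads, per the design text of the series. Tools in the submitters' processing notes are HISAT2 and Trimmomatic, with FastQC and DESeq2, and the build is GRCm38.p6. For the counting tool, strand use and annotation, nothing is given in the sources at hand. The authors deposited unnormalized whole-number counts per gene (47593 rows, 1 column per tumour, 0 columns without a sample). They also deposited a table of their comparison of genotypes, with log2 fold changes, p-values and a score per gene as the authors made them, whose 761 genes all had an adjusted p-value of at most 0.0499. The fold changes and the score were not used.

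CPM here are counts over the column sum. Spreadsheet dates stood in for 25 gene names, of which 20 were restored by position. Members and gene lists were chosen with earlier results of these data known. Genes were classed within Cdk6-/- by the fixed ratio of 4 and the minimum of 1 CPM, with no test. Named genes are the 12 with the largest ratio among genes high in both and 8 of each other pattern, at 10 CPM or more and leaving out predicted genes and clones, up to 4 members per list with the highest CPM in any Cdk6-/- tumour, and Gabra6, Cdk6, Mki67, Atoh1, Xist and Ddx3y. Others are said to be chosen after their values were seen, and some genes that the rule names are not reported here. Genotypes were tested with edgeR 4.0.16 (R 4.3.3; filterByExpr, TMM, robust quasi-likelihood F test, Benjamini-Hochberg over all genes tested, threshold 0.05), with DESeq2 1.42.0 as an alternative. No 2 libraries of a group held the same counts within sampling noise (chi-square of at least 34.0 per degree of freedom). The pattern calls and edgeR's test were tested on simulated data. Other alternatives were TMM scaling, a ratio of 2, a minimum of 5 CPM, no filter, a replicate block and leaving out tumours. Shared 50-base sequences came from GENCODE transcripts, and 95.2% of the gene names matched GENCODE. Opposite exons came from the exon positions that the authors gave with the counts. Python 3.11.15 with pandas 2.3.3 and scipy 1.17.1 was used for the rest. Length per gene was not corrected for, so levels are compared between tumours and not between genes.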

Additional observations from a re-analysis of the deposited data

Results flagged for a closer look

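Within the 6 Cdk6-/- tumours, the gap between the highest or lowest tumour and the nearest of the others was divided by the whole range. For normally distributed values this ratio passes Dixon's 95% critical value in about 1 in 20 groups by chance. It was taken on CPM without a log, where a high tumour passes more easily than a low one. The share that passes by chance is thus not known here, and the counts of highest and lowest tumours depend on that scale. Of 131 named genes and list sums examined, 41 passed. Since many of these were named because 1 tumour stood out, their number is no measure of how often that happens. Tumour 5 was the highest in 24 of the 41 and the lowest in 4, tumour 1 the highest in 10, tumour 6 in 2 and tumour 4 in 1.

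Where tumour 5 was the highest, the gap ratio was 0.987 for Prokr2, 0.981 for Syt10, 0.978 for Cdr1, 0.973 for Slitrk4, 0.964 for Cntnap5b, 0.963 for Itpr1, 0.963 for Fbln5 and 0.96 for Cntnap5c, all named for that pattern. For genes named from the Purkinje and interneuron lists it was 0.951 for Gad2, 0.939 for Rgs8, 0.932 for Car8, 0.925 for Lgi2, 0.924 for Calb1 and 0.918 for Gad1. The sums of these lists gave 0.936 for Purkinje cells and 0.865 for interneurons. Glial genes gave 0.792 for Slc4a4, 0.764 for Mobp and 0.753 for Slc1a3, and the astrocyte sum gave 0.729. The same tumour was the highest for the receptor gene Gria1 (0.817), for Fam135b (0.842) and Lancl3 (0.767), which were high in both, and for the neurofilament gene Nefm (0.802). It was the lowest for Mki67 (0.703), Kif2c (0.69), the mitosis sum (0.738) and the sum of NFI, Neurod and MEF2 factors (0.66).

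Where tumour 1 was the highest, the ratio was 0.99 for Arhgap36, 0.953 for Scn11a, 0.935 for Gem, 0.924 for Phex, 0.917 for Hpse, 0.868 for Npas4, 0.828 for Galntl6 and 0.774 for Ngef, again genes named for it, and 0.846 for Nrep and 0.664 for Cacna1e. Tumour 4 was the highest for Flnc (0.788, 76.4 CPM). Tumour 6 was the highest for Xist (0.933, 1701 CPM) and the sex-linked sum (0.876).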

How the results depend on the processing

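All 144 genes high in both stayed so with TMM scaling (211 genes), with a ratio of 2 and without any 1 of tumours 2, 3, 4 and 6, and 129 with a minimum of 5 CPM. Except for the minimum of 5 CPM, these settings could only add genes high in both, so keeping all 144 was fixed in advance. A ratio of 2 gave 469 genes high in both, 219 in tumour 1 only, 1724 in tumour 5 only, 641 low in both, 710 in tumour 1 only and 2008 in tumour 5 only. TMM scaling gave 32 low in both and 61 in tumour 1 only, and raised Gabra6 in tumour 1 to 931 CPM. A minimum of 5 CPM gave 36 and 41. Without 1 low tumour the ranges were 152 to 246 high in both, 106 to 114 in tumour 1 only, 766 to 1044 in tumour 5 only, 63 to 218 low in both, 105 to 405 in tumour 1 only and 1104 to 1181 in tumour 5 only. Leaving out tumour 1 or 5 leaves the patterns undefined. For the genotypes, 953 genes were called, 2887 by DESeq2, 2643 without tumours 1 and 5, 1121 with no filter and 207 to 1506 without 1 sample. Same-numbered tumours did not deviate together (correlations 0.0473, -0.179 and -0.254 over genes), and a replicate block, which rests on tumours 1 to 3 of each genotype, gave 822 calls and a Gabra6 log2 fold change of -0.75, against 1.68 without it and -2.64 without tumours 1 and 5. The causes were not tested. With 1 library per tumour and 2 high tumours, no spread can be given for a pattern.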

Other observations

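Tumour 4, a low Gabra6 tumour, held hindbrain Hox transcripts that the other tumours hardly had. Both genes below were picked after their values were seen. Hoxb4 was at 21.7 CPM in tumour 4, against at most 0.608 CPM in the other Cdk6-/- tumours and 0.127 CPM in the Cdk6+/+ tumours. Hoxb3 was at 44.9 CPM there, against at most 0.145 CPM and 0.0176 CPM, and Hoxb3os runs on the other strand over 52.9% of its exons, and the 2 genes' reads cannot be told apart here.

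Ttr, a transthyretin made by choroid plexus, was at 291 and 344 CPM in tumours 1 and 5, against 528, 1418, 0.0442 and 0.0434 CPM in tumours 2, 3, 4 and 6. Tumours 4 and 6, the pair with 1 count each, were both low Gabra6 tumours, and the Cdk6+/+ tumours had 398, 344 and 4.59 CPM.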
